A study of Mus musculus with 19 samples.

Results

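The SVX_VAS set is the 4 endometrial libraries whose columns in the count table carry the prefix SVX_VAS, and it was set against the 4 libraries with the prefix INT. The 8 libraries were picked by column prefix out of 19 in 5 groups, with no measured value used. All 8 came from adult C57Bl/6 females on day 3.5 post coitum (pc). The INT females had mated with intact Balb/c males, so sperm and complete seminal plasma reached them. The mating partners of the SVX_VAS females are less certain, because prefix and title disagree. The prefix names removal of the seminal vesicles together with vasectomy, whereas the titles of the same libraries name males that lacked seminal vesicles and nothing else. The prefixes SVX and VAS, with 4 libraries each, conflict with their titles too. Libraries are therefore called by prefix throughout, and no difference here is assigned to sperm or to seminal vesicle fluid. The last group, CONT, holds 3 libraries of estrous females that were not mated. Endometrium was scraped from the myometrium, and the study describes its samples as pooled. The number of females in each pool is not given in the sources used here, and p-values cover only the spread between these libraries.

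Seminal fluid is more than a vehicle for sperm. Secretions of the seminal vesicles carry signaling molecules such as TGF-beta and prostaglandins, which bind receptors in the female tract and elicit cytokine release and leukocyte recruitment in the hours after mating. By day 3.5 pc, ovarian progesterone has switched the epithelium from an estrogen-driven, proliferating and secretory state to a receptive one, in which Indian hedgehog signals from epithelium to stroma, and leukemia inhibitory factor from the glands prepares for attachment. The comparison asks whether the endometrium at this stage differs after mating with surgically altered males, whichever surgery the SVX_VAS libraries stand for.

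No gene separated the SVX_VAS from the INT libraries at the criteria used. With edgeR's quasi-likelihood test, 0 of 17222 genes tested passed a Benjamini-Hochberg false discovery rate (FDR) of 0.05 with a change of at least 1.5-fold, a background of 0%. The smallest FDR was 0.744. At an unadjusted p under 0.05 there were 339 genes, or 1.97% of those tested, of which 119 were higher (0.691%) and 220 lower (1.28%) in SVX_VAS. In 166 genes (0.964%) all 4 SVX_VAS libraries lay above all 4 INT libraries, and in 136 genes (0.79%) they lay below. Other tools gave similar answers with 1 exception. DESeq2 called 2 genes, Sphkap and Nr4a3, whereas limma-voom called 0 with 318 genes at an unadjusted p under 0.05, and its version with sample quality weights called 0 with 2696. When the replicates VAS 2 and VAS 3, which stood apart from all other libraries, were left out of the fit, edgeR again called 0, with 608 genes at an unadjusted p under 0.05.

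A count of 0 does not mean that the groups were the same. The 95% interval of the log2 fold change (logFC) reached a median of 0.38 to either side of the estimate and lay wholly within 1.5-fold in either direction for 10155 genes (59.0%). It lay within 2-fold for 13751 genes (79.8%). For the remaining genes the interval reached past 2-fold in at least 1 direction. Without VAS 2 and VAS 3, the intervals reached a median of 0.30 to either side and 12316 genes (71.5%) had an interval within 1.5-fold. Library totals ranged from 14201095 to 17420572 counts in INT and from 13789824 to 20525568 in SVX_VAS. At these depths, 3 counts corresponded to 0.171 to 0.227 CPM, the count scaled to library size, in INT and 0.145 to 0.221 CPM in SVX_VAS. VAS 2 and VAS 3 had TMM factors of 1.29 and 1.33 against 0.847 to 1.02 elsewhere, and counts for 25016 and 25037 genes against 27757 or more.

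Most of the variance among the 8 libraries lay within the groups. Group membership accounted for 8.88% of the total sum of squares of log2 CPM, and 91.1% lay between libraries of the same group. The first principal component held 62.9% of the variance and cut across both groups. INT 1 and INT 2 scored 62.2 and 37.6 on it, next to SVX_VAS 2 at 43.8. INT 3 and INT 4 scored -35.6 and -35.4, next to SVX_VAS 1 and SVX_VAS 3 at -37.6 and -39.3, and SVX_VAS 4 lay between at 4.25. The genes with the largest weights on this component were Clca1, Sprr2a3, Lcn2, Sprr2b and Muc4, which encode secreted, cornified envelope and mucin proteins of epithelium.

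**Figure D1:**
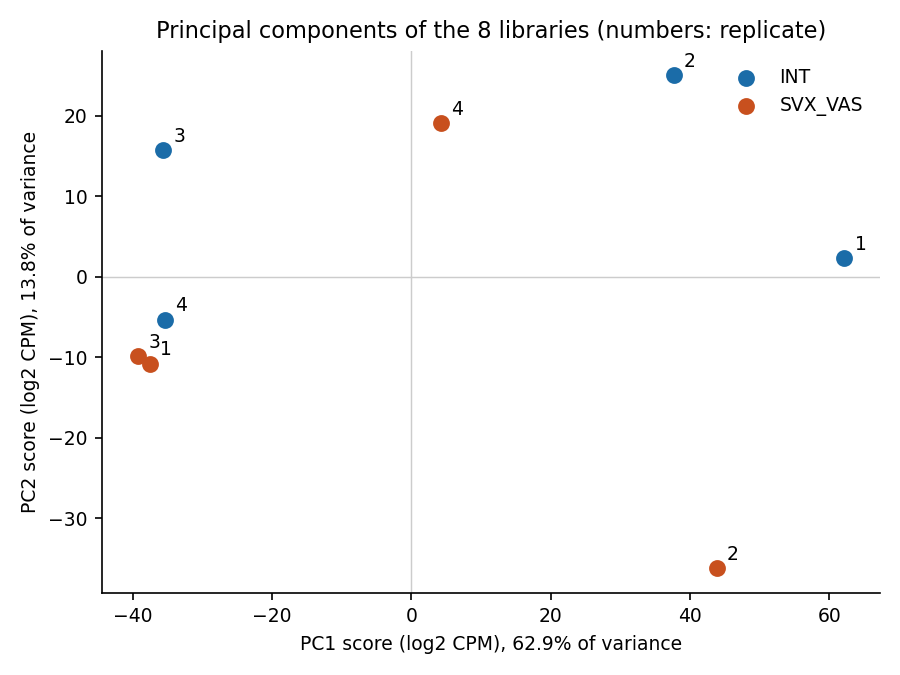
Scores of the 8 libraries on the first and second principal components of log2 CPM over 17222 genes; each point is a library, coloured by group and numbered by replicate. INT 1, INT 2 and SVX_VAS 2 lie at the positive end of the first component, and libraries of both groups lie together at the negative end.

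The 10 genes with the smallest p held 3 with higher and 7 with lower estimates in SVX_VAS. Of these, 6 had no overlap between INT and SVX_VAS values. Over all genes tested, 0.964% lay above and 0.79% below all INT libraries. Ranking by p favours genes without overlap, so the 6 are no separate support. The FDR of the 10 genes ran from 0.744 to 1, so none is a call. The smallest p was that of Sphkap, which encodes an anchoring protein that binds protein kinase A and sphingosine kinase (GRCm38, chromosome 1, 83254139 to 83408200, minus strand). Sphkap measured 10.3, 9.83, 6.79 and 4.27 CPM in INT 1 to 4, and 2.08, 2.61, 3.16 and 2.35 CPM in SVX_VAS 1 to 4. The lowest INT library stood above the highest SVX_VAS library, and the SVX_VAS values were close to the 2.15 to 3.26 CPM of estrous endometrium. Among the SVX_VAS libraries, Sphkap exceeded 3 CPM in SVX_VAS 3 alone. It thus passed the filter on low counts (3 CPM in 3 or more libraries) through other groups, which favours lower values in SVX_VAS. Its logFC was -1.61 (95% interval -2.22 to -0.996), and its edgeR FDR was 0.0968 with INT 4 left out, 0.555 without INT 3 and 1 in the other leave-one-out fits. DESeq2 gave Sphkap an adjusted p of 0.0049. The SVX libraries were likewise low in Sphkap, at 2.91 to 3.19 CPM, and the VAS libraries measured 4.87 to 10.6 CPM.

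Nr4a3 was the second gene. It encodes an orphan nuclear receptor of the immediate early class, whose transcription starts within minutes of a stimulus without new protein synthesis (chromosome 4, 48045153 to 48086447, plus strand). Nr4a3 stood at 5.22, 2.40, 4.79 and 6.09 CPM in INT 1 to 4, and at 29.9, 6.60, 20.5 and 28.0 CPM in SVX_VAS 1 to 4. Each SVX_VAS library lay above every INT library, but SVX_VAS 2 did so narrowly. The logFC was 2.20 (95% interval 1.22 to 3.18) with an edgeR FDR of 1, while DESeq2 gave an adjusted p of 0.0138. Without SVX_VAS 2 the logFC was 2.50 and its FDR was 0.24. The SVX libraries measured 7.74 to 15.1 CPM, inside the SVX_VAS range, and the estrous libraries 1.01 to 1.82 CPM.

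Nr4a3 has 2 close relatives, Nr4a1 and Nr4a2, and cyclic AMP and calcium signals induce the family through CREB, a factor that binds the core letters TGACG. The stretches before the start sites of the 3 genes are shown because these letters recur in them. Sequences are those of RefSeq on GRCm38.p6, which held an entry for each of the 3 genes. They run 5′ to 3′ along the gene from 250 bases before the start, and stop before the first exon in the count annotation. Capitals mark TGACG on either strand, so that the opposite strand reads CGTCA.
Nr4a1: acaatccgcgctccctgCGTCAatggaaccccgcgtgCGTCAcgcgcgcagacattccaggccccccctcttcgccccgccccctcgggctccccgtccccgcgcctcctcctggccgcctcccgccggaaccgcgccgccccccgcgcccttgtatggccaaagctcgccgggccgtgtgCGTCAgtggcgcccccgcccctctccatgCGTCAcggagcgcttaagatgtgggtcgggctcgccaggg
Nr4a2: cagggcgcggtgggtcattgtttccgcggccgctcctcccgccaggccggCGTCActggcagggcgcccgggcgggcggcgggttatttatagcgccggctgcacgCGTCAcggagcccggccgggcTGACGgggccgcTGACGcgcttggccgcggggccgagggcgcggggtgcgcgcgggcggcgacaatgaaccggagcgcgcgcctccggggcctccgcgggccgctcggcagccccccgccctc
Nr4a3: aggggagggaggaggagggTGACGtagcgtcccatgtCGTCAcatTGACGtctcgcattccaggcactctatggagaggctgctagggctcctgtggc

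The Nr4a1 stretch is chr15:101266596-101266845 on the plus strand, that of Nr4a2 is chr2:57124004-57124253 on the minus strand, and that of Nr4a3 is chr4:48045055-48045152 on the plus strand. Over the whole 250 bases before the start, each of the 3 genes held 4 matches to TGACG or CGTCA, and for Nr4a3 3 of them are in the shorter stretch shown. Among 32851 promoter entries, 17.8% held at least 1 match in that window and 45 entries (0.137%) held 4 or more. A match is a description of the letters, and whether CREB was bound in these tissues was not measured. Of the other genes examined, Fos held 2 matches, Egr2 at most 2 in any of its 5 entries, Fosb and Atf3 held 1 and Sphkap held 0.

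The other immediate early genes had smaller differences. Of 21 tested members of that list, 17 had positive and 4 negative estimates, with a median logFC of 0.08 beside -0.01 over all genes. There were 5 members at an unadjusted p under 0.05, all higher in SVX_VAS, beside the background of 0.691% in that direction, and 2 members, Nr4a3 and Atf3, lay above all INT libraries, beside 0.964% of all genes. The 5 were Nr4a3, Fosb, Nr4a2, Atf3 and Dusp1, the last a phosphatase of MAP kinases with a logFC of 0.50 (95% interval 0.09 to 0.92). Fosb, an AP-1 subunit, measured 2.27, 2.14, 8.44 and 3.78 CPM in INT and 10.96, 5.43, 12.1 and 8.61 CPM in SVX_VAS, with a logFC of 1.15 (95% interval 0.29 to 2.01). INT 3 overlapped the SVX_VAS range for Fosb. Atf3, a stress-induced member of the CREB family, lay at 2.27 to 5.18 CPM in INT and 5.41 to 13.0 CPM in SVX_VAS. Nr4a2 had a logFC of 0.46 (95% interval 0.11 to 0.82) with overlapping libraries. Nr4a1 overlapped as well, because INT 3 reached 33.6 CPM against 9.08 to 10.9 CPM in the other INT libraries. Fosl2 and Klf6, the most abundant members, had logFC of 0.08 and 0.04. Immediate early transcripts also respond to handling of tissue and to time until lysis, for which no measurement exists here, and their part in these values was not tested.

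**Figure D2:**
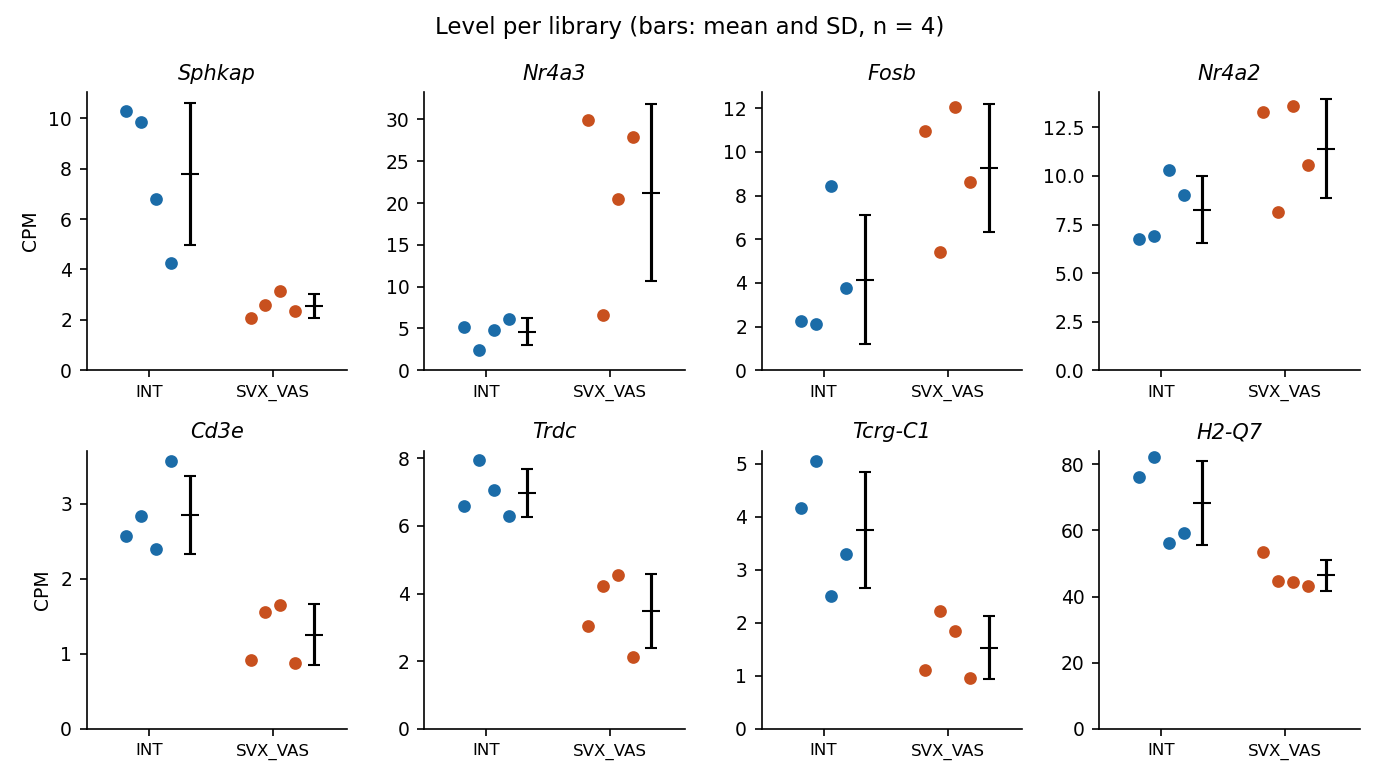
CPM of 8 genes in each INT and SVX_VAS library on linear axes from 0, with one point per library and a bar for the mean and SD (n = 4 per group). Sphkap, Cd3e, Trdc, Tcrg-C1 and H2-Q7 lie lower and Nr4a3 lies higher in every SVX_VAS library than in any INT library. Fosb and Nr4a2 overlap, and none of the 8 genes passes the FDR criterion. All 8 were ranked by p or chosen after their values were seen, so their separation is not a test. The filter on low counts also favoured lower values of Cd3e and Tcrg-C1 in SVX_VAS, where no library exceeded 3 CPM.

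Cd163l1 and Itgb7 were also among the 10 smallest p. Cd163l1 encodes a scavenger receptor cysteine-rich protein known from gamma-delta T cells, and Itgb7 an integrin chain that directs lymphocytes to mucosal surfaces. Cd163l1 measured 20.6, 20.6, 16.7 and 15.1 CPM in INT and 3.38, 9.98, 8.70 and 5.002 CPM in SVX_VAS, a logFC of -1.43 (95% interval -2.31 to -0.55). Itgb7 measured 14.8, 13.2, 17.5 and 18.4 CPM in INT and 8.79, 10.8, 10.2 and 9.05 CPM in SVX_VAS, a logFC of -0.72 (95% interval -1.18 to -0.27). Neither gene overlapped between the groups.

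Genes of T cells were therefore examined further, on lists drawn up after these values were seen, so that their counts describe and do not test. A broader list of T and NK cell markers showed no common direction, with 4 positive and 5 negative estimates among 9 tested and a median logFC of -0.003. In this list 1 member, Cd3e, lay below all INT libraries, beside 0.79% of all genes, a position that the filter on low counts favoured. The summed level of the broader list was 55.0 to 101.4 CPM in INT and 65.3 to 95.8 CPM in SVX_VAS. Of 11 genes that encode CD3 and T cell receptor chains, 7 passed the filter on low counts. Cd3e, Trbc2 and Tcrg-C1 exceeded 3 CPM in no SVX_VAS library and passed through other groups, INT among them, which favours lower values in SVX_VAS, so the members that passed are described singly. Trdc, the constant region of the T cell receptor delta chain, measured 6.58, 7.94, 7.07 and 6.30 CPM in INT and 3.04, 4.21, 4.55 and 2.13 CPM in SVX_VAS, a logFC of -0.998 (95% interval -1.63 to -0.36). Its exons overlap Gm43434 and Trdv5 on the opposite strand. Tcrg-C1, a constant region of the gamma chain, measured 4.16, 5.04, 2.51 and 3.29 CPM in INT and 1.11, 2.22, 1.85 and 0.956 CPM in SVX_VAS. The INT libraries were enough to carry Tcrg-C1 past the filter. Cd3e, a signaling chain that every T cell carries, lay at 2.40 to 3.57 CPM in INT and 0.883 to 1.65 CPM in SVX_VAS. Because of the filter, no logFC is drawn on for Tcrg-C1 or Cd3e. In estrous endometrium Trdc reached at most 1.19 CPM, Cd3e 0.574 CPM and Tcrg-C1 0.303 CPM. Cd247, the zeta chain that NK cells also use, was at 33.6 CPM in INT and 31.3 CPM in SVX_VAS on average, and Trbc1 had a logFC of 0.13. Summed over the 11 genes, CPM on total counts were 59.7, 66.5, 57.6 and 64.0 in INT 1 to 4 and 46.2, 49.2, 55.3 and 42.3 in SVX_VAS 1 to 4. These sums did not overlap, but the list was drawn up after its values were seen, so this is not a test. Cd247 made up the largest part of each sum.

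Genes for T cell signaling and homing formed another list, with 15 of 20 tested, which holds Cd163l1 and Itgb7 themselves. Lat, Il7r and Blk passed the filter without exceeding 3 CPM in any SVX_VAS library, so no count over this list is drawn on either. Lat is the adaptor that links the receptor to its kinases, Il7r the receptor for a survival cytokine, and Blk a kinase of B cells and gamma-delta T cells. Their libraries did not overlap, but the filter favoured this, so no logFC is drawn on for them. Cxcr6, a homing receptor of tissue-resident lymphocytes, had no overlap and a logFC of -0.61. The FDR was 1 for each of Lat, Il7r, Blk and Cxcr6. Other members of the list overlapped, such as Lck (logFC -0.10) and Zap70 (-0.20). Among T cell genes below the filter, in raw counts not scaled to the somewhat larger SVX_VAS total, Cd8a gave 163 counts over the INT libraries against 57 over SVX_VAS, Cd3d 82 against 43, Trac 107 against 70, and Icos 139 against 87. Other such genes gave 95 against 136 counts for Tigit and 131 against 139 for Il2ra. NK cells are the most numerous lymphocytes of the mouse uterus around implantation. Of 16 NK cell genes, 10 had positive and 6 negative estimates with a median logFC of 0.11, and 0 lay below all INT libraries, beside 0.79% of all genes. Ncr1, an activating receptor of NK cells, measured 8.17 to 12.3 CPM in INT and 8.53 to 12.3 CPM in SVX_VAS. No T cell gene passed the FDR criterion, so these values do not settle whether T cell transcripts differed between the groups. In bulk tissue, fewer T cells and less RNA per T cell could not be told apart in any case. Cd3e, Trdc and Tcrg-C1 were not at INT levels in the SVX libraries either, with mean levels of 0.927, 4.07 and 1.09 CPM. Regulatory T cell genes numbered 5 tested of 12, with 4 positive and 1 negative estimate. Foxp3, their defining transcription factor, measured 11.1 to 12.5 CPM in INT and 11.2 to 12.1 CPM in SVX_VAS, with exons that overlap Ccdc22 and Gm36995 on the opposite strand. In estrus it measured 9.93 to 11.5 CPM.

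H2-Q7 and H2-Q6, which encode nonclassical MHC class I molecules, also ranked among the 10 smallest p. H2-Q7 measured 76.1, 82.2, 56.1 and 59.3 CPM in INT and 53.5, 44.6, 44.4 and 43.2 CPM in SVX_VAS, with no overlap and a logFC of -0.56 (95% interval -0.81 to -0.31). H2-Q6 had a logFC of -0.50 (95% interval -0.77 to -0.22) with overlapping libraries. These genes are near-identical copies on chromosome 17 that can share reads, so their estimates are not separate observations. Of the 16 members of the MHC and antigen presentation list, 16 had negative estimates, with a median logFC of -0.35. There were 2 at an unadjusted p under 0.05, beside 1.28% of all genes in that direction. They were Tap1 (-0.35) and Psmb9 (-0.39), which transport and cut peptides for class I molecules. The most abundant members were H2-K1 (-0.51, 95% interval -1.29 to 0.26) and H2-D1 (-0.41, 95% interval -1.22 to 0.40), classical class I heavy chains. The summed level of the list was 3094, 2644, 1910 and 2355 CPM in INT and 2026, 2141, 1972 and 1888 CPM in SVX_VAS. INT 1, INT 2 and INT 4 stood above the SVX_VAS range and INT 3 inside it.

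The 4 further genes among the 10 smallest p were Jade1, Gm9195, Xkr5 and Ddit4. Jade1, a scaffold of histone acetyltransferase complexes, measured 97.8 to 101 CPM in INT and 117 to 133 CPM in SVX_VAS, a small difference between tight groups (logFC 0.31, 95% interval 0.16 to 0.46). Its exons overlap Gm31266 on the opposite strand. Gm9195, a predicted gene, had a logFC of 0.64, and Xkr5, of the XK-related family, a logFC of -0.93. Xkr5 exceeded 3 CPM in SVX_VAS 1 alone of its group, at 3.14 CPM. It passed the filter on low counts through other groups, which favours lower values in SVX_VAS. Ddit4, a stress-induced inhibitor of mTORC1, measured 62.3, 57.2, 23.6 and 28.1 CPM in INT and 18.5 to 27.6 CPM in SVX_VAS, so that INT 1 and INT 2 alone stood above the SVX_VAS libraries by more than 2-fold. Htr1b, a serotonin receptor chosen after its values were seen, measured 9.30 to 14.1 CPM in INT and 21.2 to 23.8 CPM in SVX_VAS, and its exons overlap D430036J16Rik on the opposite strand.

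**Figure D3:**
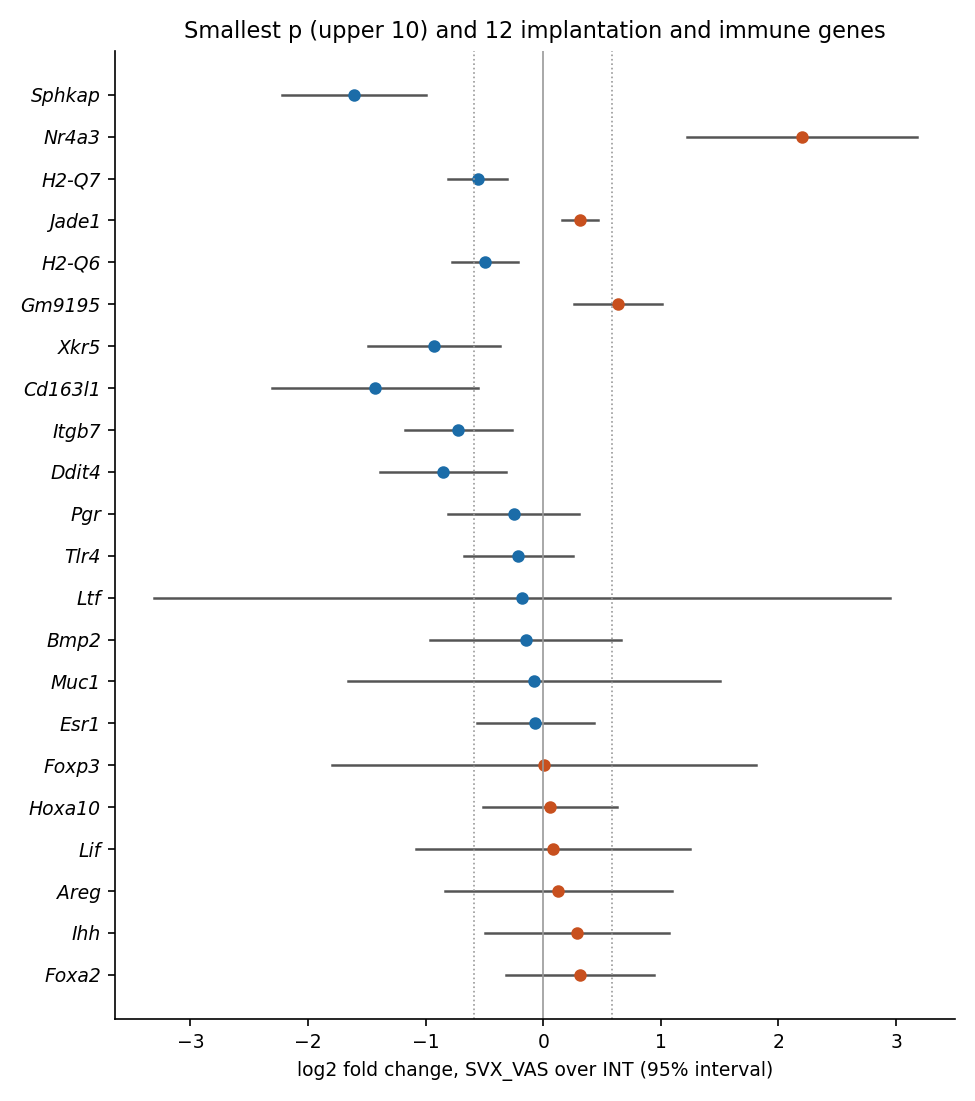
Log2 fold change of SVX_VAS over INT (points) with 95% intervals (lines) from the edgeR fit, for the 10 genes with the smallest p and for 12 genes of implantation and immunity; dotted lines mark 1.5-fold. Ltf has the widest interval, from -3.31 to 2.95, and Jade1 the narrowest of the upper 10.

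Genes that estrogen induces in uterine epithelium varied widely within both groups. Ltf, which encodes the iron-binding lactotransferrin, measured 2157, 643, 27.4 and 45.3 CPM in INT 1 to 4 and 16.7, 2301, 21.0 and 194 CPM in SVX_VAS 1 to 4. INT 1 and SVX_VAS 2 thus lay within the 1875 to 2848 CPM of estrous endometrium, while 3 libraries were below 30 CPM. The logFC was -0.18 with a 95% interval from -3.31 to 2.95, which holds large changes in either direction. C3, the central complement component, was high in the same libraries, with 3989, 1445, 129 and 170 CPM in INT and 187, 4623, 183 and 509 CPM in SVX_VAS. Muc1, the mucin of the apical glycocalyx that is lost before attachment, measured 170, 141, 20.4 and 26.5 CPM in INT and 22.9, 213, 25.1 and 76.9 CPM in SVX_VAS, below the estrous range of 417 to 430 CPM in each library. Lcn2, a siderophore-binding protein, lay at 4.06 to 1180 CPM in INT and 1.71 to 1052 CPM in SVX_VAS. Clca1, a secreted modulator of chloride channels, lay at 2.91 to 1893 CPM in INT and 1.32 to 2135 CPM in SVX_VAS. Of 19 tested members of this list, 0 were called, 0 had an unadjusted p under 0.05 and the median within-group SD was over 2 on the log2 scale in each group. The direction of the estimate depended on single libraries: leaving out each library in turn moved the logFC of Ltf between -3.22 and 1.41.

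**Figure D4:**
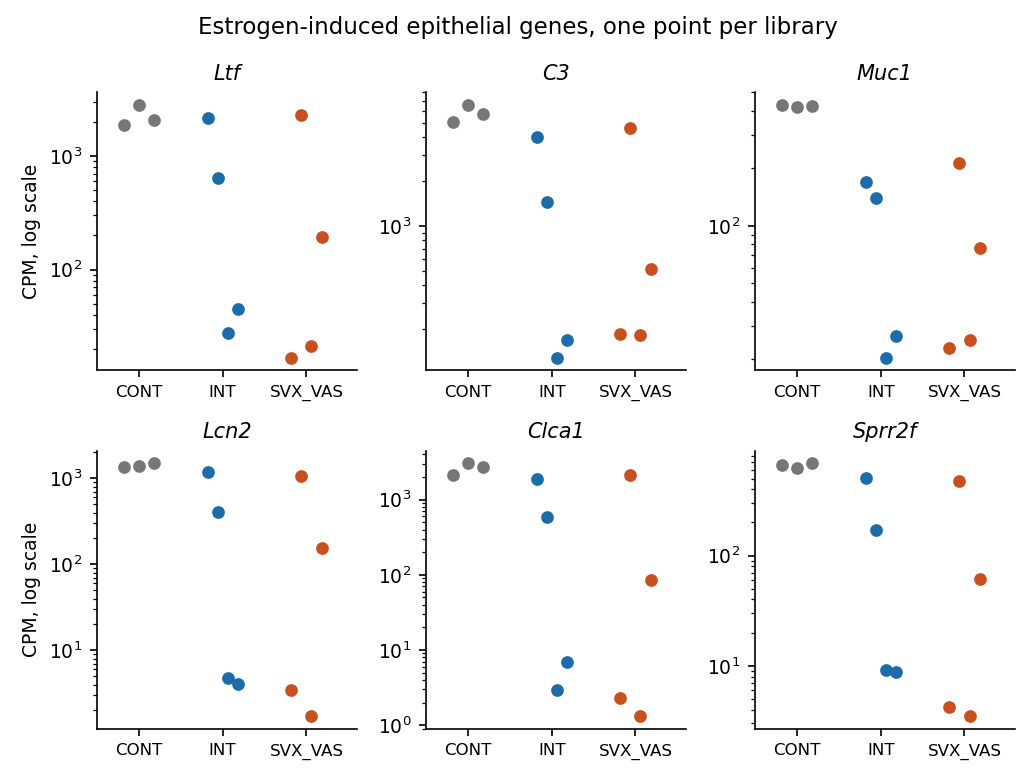
CPM of 6 estrogen-induced epithelial genes on logarithmic axes, one point per library, in estrous endometrium (CONT) and in INT and SVX_VAS libraries on day 3.5 pc. In each gene the INT and SVX_VAS libraries overlap, and INT 1 and SVX_VAS 2 are the libraries nearest the estrous level.

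Ihh, Areg, Acod1 and Lrp2, which progesterone induces in the epithelium, were above their estrous range in all 8 libraries, including those with high Ltf. Ihh, the epithelial hedgehog ligand, measured 23.6, 24.1, 48.8 and 47.1 CPM in INT and 41.3, 39.8, 53.2 and 40.8 CPM in SVX_VAS, against 0.476 to 3.41 CPM in estrus. Areg, an EGF family ligand, lay at 2.50 to 8.82 CPM in INT and 6.13 to 7.38 CPM in SVX_VAS. Acod1, which makes itaconate, lay at 51.4 to 164 CPM in INT and 57.9 to 124 CPM in SVX_VAS, against at most 0.531 CPM in estrus. Lrp2, the endocytic receptor megalin, had a logFC of 0.49 (95% interval -0.34 to 1.31). Of 18 tested members, 15 had positive and 3 negative estimates with a median logFC of 0.17, and 0 were called. The receptors themselves did not differ beyond their spread, with logFC of -0.07 (95% interval -0.56 to 0.43) for Esr1, the estrogen receptor, and -0.25 (95% interval -0.81 to 0.31) for Pgr, the progesterone receptor.

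Downstream of Ihh, the receptor and target Ptch1 had a logFC of 0.19 (95% interval -0.36 to 0.75), and Nr2f2, the stromal mediator COUP-TFII, 0.19 (95% interval -0.21 to 0.60). The hedgehog axis held 11 positive and 2 negative estimates among 13 tested genes, with a median logFC of 0.16 and 0 genes at an unadjusted p under 0.05 in either direction. Lif measured 43.9, 23.2, 9.98 and 8.19 CPM in INT and 21.4, 37.8, 12.3 and 18.8 CPM in SVX_VAS, with the highest values in libraries high in Ltf. Its logFC was 0.08 (95% interval -1.08 to 1.25). Il6st, the shared receptor gp130, had a logFC of 0.16, and Stat3, its transcription factor, 0.05. The summed CPM of the LIF, STAT3 and gp130 list was 1932 to 2154 in INT and 2201 to 2318 in SVX_VAS, without overlap. Full separation of 4 against 4 libraries has an exact permutation p of 0.0286, and the sums of 46 lists were examined. The sums of the other lists overlapped. Il6st, the most abundant member of the LIF list, overlapped as well (1157 to 1392 CPM against 1385 to 1500 CPM). Foxa2, the gland transcription factor, and Hoxa10, a stromal one, had logFC of 0.31 (95% interval -0.32 to 0.94) and 0.05 (95% interval -0.51 to 0.62). Bmp2, which acts in decidualization, had a logFC of -0.15 (95% interval -0.96 to 0.66). Errfi1, a feedback inhibitor of EGF receptors, measured 115 to 167 CPM in INT and 173 to 185 CPM in SVX_VAS, with no overlap and a logFC of 0.32 (95% interval 0.02 to 0.61).

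Inflammatory mediators that seminal fluid is known to induce soon after mating were low. Of 21 listed, 10 passed the filter, with 8 positive and 2 negative estimates. Csf2, which encodes GM-CSF, had 5 counts in all over the 4 INT libraries and 8 over the 4 SVX_VAS libraries. Il6 had 25 and 37 counts, and neither gene was tested. Tlr4, a receptor for bacterial and endogenous ligands that seminal fluid engages, had a logFC of -0.21 (95% interval -0.67 to 0.25). Ptgs2, the inducible prostaglandin synthase, measured 20.9, 5.48, 11.01 and 5.95 CPM in INT and 13.1, 315, 7.38 and 7.72 CPM in SVX_VAS. Its logFC of 2.99 rested on SVX_VAS 2, and without that library it was -0.20. SVX_VAS 2 also held 211 of the 216 counts of Cxcl2 and 53 of the 59 counts of Cxcl1, both neutrophil-attracting chemokines, over the SVX_VAS libraries. The gland proteases Prss28 and Prss29 rested on INT 3 in the same manner, at 108 and 186 CPM there, against 0.49 to 11.04 CPM in the other 7 libraries.

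Besides the MHC list, the cell cycle and cholesterol synthesis lists had negative estimates throughout, as had 2 short lists, the 6 lymphatic endothelium markers and the 2 blastocyst markers tested. All 22 cell cycle and DNA replication genes had negative estimates with a median logFC of -0.61, and 4 of them, Ccnb2, Aurka, Aurkb and Bub1, had an unadjusted p under 0.05, beside 1.28% of all genes that were lower at that level. Their summed CPM was 1249, 2215, 2546 and 1575 in INT and 1539, 1014, 1186 and 1743 in SVX_VAS, so INT 2 and INT 3 stood highest while INT 1 and INT 4 lay within the SVX_VAS range. Mki67, the proliferation marker, had a logFC of -0.65 (95% interval -1.38 to 0.07). All 18 cholesterol synthesis genes had negative estimates with a median logFC of -0.77, and 0 had an unadjusted p under 0.05. Their summed CPM was 1305, 1134, 430 and 374 in INT and 396, 544, 377 and 773 in SVX_VAS, with INT 1 and INT 2, the INT libraries high in Ltf, standing highest. Genes of such a list move together within a library, so the shared sign does not add up over members.

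**Figure D5:**
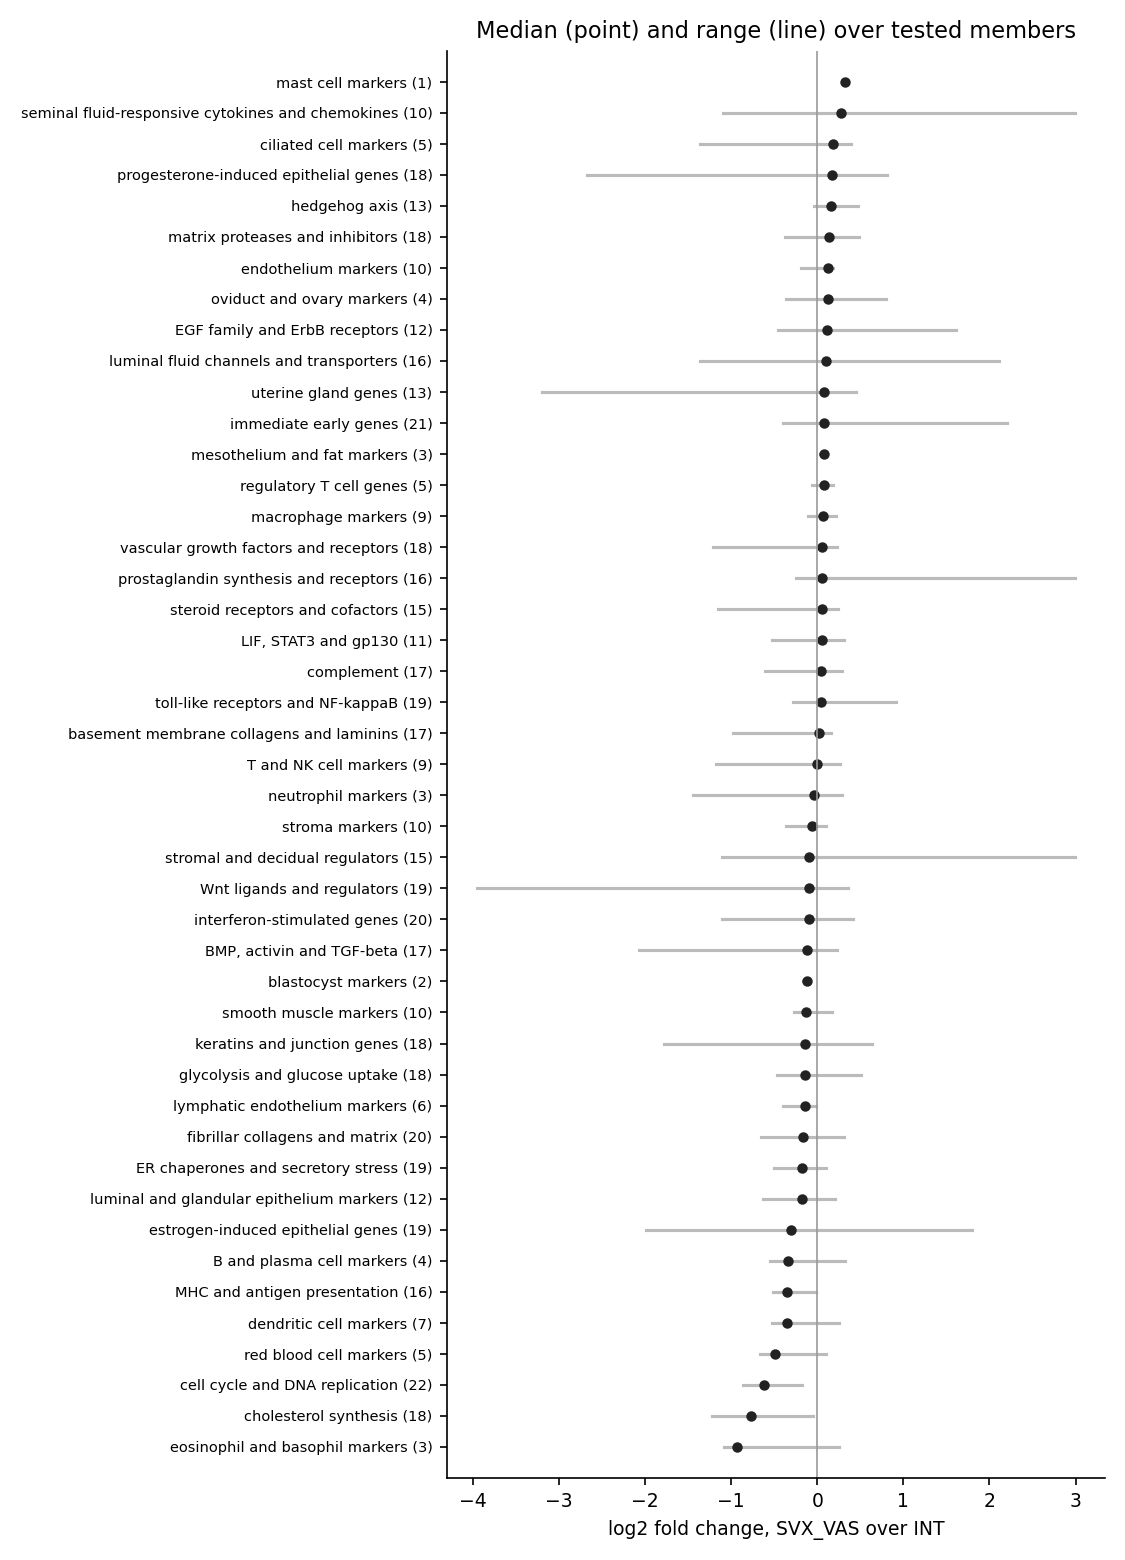
Median (points) and range (lines) of the log2 fold change of SVX_VAS over INT over the tested members of each list with a tested member, without the lists drawn up after values were seen, with the number of members tested in brackets. Medians run from -0.93 for eosinophil and basophil markers to 0.32 for the single tested mast cell marker, and 0 members of any list are called.

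Over all 46 lists, with 517 of 627 genes tested, 0 genes were called. Markers of endometrium were abundant in both groups, such as Cdh1 of the epithelium (194 to 511 CPM in INT, 265 to 464 CPM in SVX_VAS) and Col3a1 of the stroma (3139 to 3716 and 2837 to 3283 CPM). The summed level of epithelial markers was 3978, 3095, 1291 and 1576 CPM in INT and 1479, 4048, 1499 and 2132 CPM in SVX_VAS, in the same order as Ltf at its upper end, and the part of this in the estrogen-induced genes was not tested. Endothelial markers lay at 849 to 1400 and 993 to 1458 CPM, smooth muscle markers at 1226 to 1971 and 1416 to 1795 CPM, and macrophage markers at 237 to 330 and 281 to 307 CPM, with overlap in each. Csf1r, the growth factor receptor of macrophages, had a logFC of 0.00 (95% interval -0.31 to 0.30). Kit, the single mast cell marker tested, had a logFC of 0.32 (95% interval 0.01 to 0.63), whereas Cpa3, Mcpt4, Tpsb2, Fcer1a and Cma1, which mast cells express more specifically, stayed below the filter. Of 10 blastocyst genes, Cdx2, Pou5f1 and Zfp42 had 0 counts in all 8 libraries, which allows up to 0.227 CPM in the shallowest INT library. Others on that list, which adult tissues also express, were detected, such as Eomes at 3.48 to 6.62 CPM in INT and 3.75 to 5.67 CPM in SVX_VAS. The summed level of the list was 8.59 to 16.2 CPM in INT and 9.5 to 13.9 CPM in SVX_VAS. Sperm genes were low, with 0 counts of Akap4 and Smcp and at most 10 counts of Prm1, 7 of Tnp2 and 6 of Prm2 in any of the 8 libraries.

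The SVX_VAS libraries were also set against the other groups mated with surgically altered males, and all these comparisons share the SVX_VAS libraries. Against SVX, 0 of 17222 genes were called (0%), with 240 at an unadjusted p under 0.05 (1.39%) and a smallest FDR of 1, and limma-voom and DESeq2 also called 0. Of the 10 genes ranked first against INT, Sphkap had here a logFC of -0.27 (95% interval -0.88 to 0.35), Nr4a3 0.90 (95% interval -0.04 to 1.84), H2-Q7 -0.06 (95% interval -0.31 to 0.19) and Cd163l1 0.05, whereas Jade1 had 0.22 (95% interval 0.07 to 0.37) and Xkr5 -1.06 (95% interval -1.62 to -0.49). Intervals within 1.5-fold were reached by 10340 genes (60.04%). Against VAS, edgeR called 0 genes (0%) with 2520 at an unadjusted p under 0.05 (14.6%). This last count depends on which VAS libraries are in the fit. Without VAS 2 and VAS 3, which leaves only VAS 1 and VAS 4 in that group, it was 959 with 0 called. It was 5120 with 0 called without VAS 1, and 4731 with 573 called without VAS 4. With all 4 VAS libraries in the fit, DESeq2 called 26 genes, limma-voom 1804 and limma-voom with quality weights 4636.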

How the data were processed

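Total RNA of scraped endometrium was made into stranded, paired-end libraries. Per the labels and the study's methods, the authors trimmed adapters, aligned reads to GRCm38/mm10 with STAR and deposited raw counts per gene from featureCounts; the strand setting is not given in the sources used here. All 49089 genes in the table have a unit of whole counts, and 48349 were matched to a symbol.

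The 17222 genes that reached 3 CPM in 3 or more libraries were tested. Counts were scaled by TMM and fitted with edgeR 4.0.16 in R 4.3.3 over all 19 libraries and 5 groups, without a replicate term. A call needed an FDR of 0.05 or less and a change of 1.5-fold. CPM are TMM-scaled, except list sums and summed T cell receptor levels, which use total counts. SE and 95% intervals come from the quasi-likelihood F. limma 3.58.1 and DESeq2 1.42.0 were alternatives, and the edgeR and limma-voom fits were checked on simulated data. The smallest chi-square per gene between libraries of a group was 11.4, so none was a repeat of another.

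Members and lists were chosen with earlier results of these data known. Named genes were the 10 smallest p, the 2 most abundant members of the lists described, and 14 fixed genes; T cell, NK cell, H2-Q and Nr4a lists and other single genes were chosen after their values were seen.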

Additional observations from a re-analysis of the deposited data

Results flagged for a closer look

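Within a group of 4 libraries, a library was singled out where its gap to the nearest other exceeded Dixon's 95% critical value as a share of the whole range on the log2 scale. Of 184 sets of 4 values examined, 14 (7.61%) did so, 2 in INT and 12 in SVX_VAS, where chance gives about 1 in 20. The sets are not independent, since list sums hold genes that were also examined singly. Some genes were chosen after their values were seen, so the share is a description only. In SVX_VAS, replicate 2 stood high for Ptgs2 (315 CPM against 7.38 to 13.1) and low for Nr4a1 (12.1 CPM against 23.9 to 26.6). The same library stood high in the summed CPM of 6 lists: the LIF, STAT3 and gp130 list (2318), the EGF family and ErbB receptors (832.6), luminal fluid channels and transporters (3582), seminal fluid-responsive cytokines and chemokines (502), toll-like receptors and NF-kappaB (1010), and complement (6206 against 1169 to 1452). Also set apart was replicate 1 of SVX_VAS for H2-Q7 (53.5 CPM against 43.2 to 44.6) and Htr1b (23.8 CPM against 21.2 to 21.5). Replicate 3 of SVX_VAS was set apart for Ihh (53.2 CPM against 39.8 to 41.3) and Areg (7.38 CPM against 6.13 to 6.21). In these 4 genes the other SVX_VAS libraries lay close together. In INT, replicate 3 stood high for Nr4a1 (33.6 CPM against 9.08 to 10.9) and replicate 2 low for the summed level of red blood cell markers (53.3 CPM against 87.5 to 96.5).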

How the results depend on the processing

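Against INT, 20 of 21 alternatives called 0 genes, and DESeq2 called 2. Leaving out each library in turn gave 0 calls, with 135 to 727 genes at an unadjusted p under 0.05 and a smallest FDR of 0.0968; the lowest count was without INT 2, and the highest without INT 4. With a replicate block in the fit of all 19 libraries, 0 genes were called against INT, SVX and VAS, with 402 at an unadjusted p under 0.05 against INT. The deviations of INT and SVX_VAS libraries of the same number correlated at -0.69, 0.44, 0.58 and -0.44, and not every library correlated best with its own number. Such correlations follow what varies most between libraries, here the first component, so they cannot show whether libraries of a number shared a batch. That was not tested. Against VAS, limma-voom called 1804 genes, its version with quality weights 4636 and DESeq2 26, while leaving out each library in turn gave 0 to 573 calls, the highest without VAS 4; the cause was not tested. Against SVX, every alternative gave 0. Among list members, Nr4a3 was called by DESeq2. Of the 22 genes fixed or ranked by p, 14 kept their direction in all alternatives, while 8, among them Ltf, Muc1, Lif and Foxp3, changed sign without being called. The first component held 79.5% of the variance over the 500 most variable genes and 36.1% with genes at unit variance. Intervals within 1.5-fold were reached by 59.0% of genes, and by 71.5% without VAS 2 and VAS 3.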

Other observations

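Outside the lists, non-coding transcripts of the imprinted Dlk1-Dio3 region on chromosome 12 had higher estimates in SVX_VAS. Mirg had a logFC of 0.54 (95% interval 0.18 to 0.90), with the highest INT library at 8.093 CPM and the lowest SVX_VAS library at 8.096 CPM, and Rian and Meg3, which are transcribed from the same strand, had logFC of 0.39 (95% interval 0.14 to 0.65) and 0.36 (95% interval 0.10 to 0.63) with overlap. The 3 genes were chosen after their values were seen, and their FDR was 1. In the SVX libraries they were at SVX_VAS levels, with mean levels of 75.6 CPM for Meg3 and 89.2 CPM for Rian, against 76.1 and 91.6 CPM in SVX_VAS and 59.1 and 69.8 CPM in INT.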
